A study of Mus musculus with 12 samples.

Results

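Lgr5-high cells were compared with Lgr5-low cells within the Mex3a-negative cells of the mouse small intestine. The comparison holds 4 of the 12 arrays of the series, chosen by their population labels: 2 arrays of Mex3a-negative Lgr5-high cells and 2 of Mex3a-negative Lgr5-low cells. The cells were untreated primary cells, and each sample was total RNA from 2000 cells amplified through 22 cycles. Biological replicates MR793 and MR820 gave 1 array each to every population, so n = 2 throughout, and the other 8 arrays hold Mex3a-low and Mex3a-high cells split by Lgr5 in the same way. The sources used here do not say how Lgr5 and Mex3a were read out for sorting, or the strain and age of the mice. Nothing in them says whether a replicate is 1 mouse or several. The p-values rest on the spread between the 2 arrays of a population, pooled over all 12 arrays, and not on a known number of mice.

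Lgr5 encodes a receptor for R-spondins, proteins that raise Wnt signalling, and it marks the columnar stem cells at the base of the intestinal crypt. In these cells Wnt signals act through beta-catenin and TCF factors on target genes such as Axin2, Ascl2 and Lgr5 itself. Daughter cells that leave the base lower Lgr5 and become absorptive enterocytes or, where the transcription factor Atoh1 is switched on, secretory cells such as goblet, Paneth and enteroendocrine cells. Mex3a encodes an RNA-binding protein. The comparison asks what accompanies the Lgr5 level in cells sorted as Mex3a-negative.

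All values are deposited RMA expression values on a log2 scale, so that a difference of 1 is 2-fold, and differences are Lgr5-high minus Lgr5-low. A gene was called at a limma adjusted p under 0.05 over 17097 genes. Epithelial markers were high in all 4 arrays: the adhesion gene Epcam lay at 12.31 to 12.43 and the intestinal transcription factor gene Cdx2 at 10.38 to 10.53. The pan-leukocyte gene Ptprc lay at 3.96 to 4.18 and the collagen gene Col1a2 at 4.43 to 4.51, at percentiles 0.854 to 2.05 (Ptprc) and 7.67 to 8.10 (Col1a2) of all genes by mean level. Not all immune genes lay so low. The granzyme gene Gzma, described below, lay at 7.21 and 6.89 in Lgr5-high and at 5.89 and 5.61 in Lgr5-low cells. The 4 arrays correlated with each other at 0.984 to 0.994. One array of neither population, that of Mex3a-high Lgr5-high cells from MR793, is called the outlying array here. It correlated with the others at 0.896 to 0.916 and was fitted with them. It raised the median residual SD of a gene from 0.116 to 0.220, so results are also given without it. The 2 Lgr5-low arrays lay on array strip 3, and the Lgr5-high arrays on strips 1 and 2. Strip and Lgr5 gate cannot be told apart within these 4 arrays. Values given below with the strip as a block come from a fit over all 12 arrays. That block is estimated only from populations whose MR793 and MR820 arrays lay on different strips, the outlying array's population among them. It therefore mixes strip with replicate, and such values are not differences corrected for strip alone.

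Lgr5 itself separated the gates. Its level was 10.07 in MR793 and 9.96 in MR820 of the Lgr5-high cells, against 6.37 and 7.25 in the Lgr5-low cells. Both Lgr5-low arrays lay far below both Lgr5-high arrays, and the lower of them was that of MR793. The difference was 3.21 ± 0.400 (SE), or 9.23-fold, with an adjusted p of 0.0929 over 12 arrays and 0.00551 without the outlying array. A second Lgr5 probe set differed by 2.47. Since the cells were sorted by Lgr5, this checks the labels and is no finding. Mex3a lay at 5.71 and 5.91 in Lgr5-high cells and at 5.44 and 5.60 in Lgr5-low cells, close to the array medians of 5.83 to 6.04. The Mex3a difference was 0.29 ± 0.189 (adjusted p = 1.00), and a second Mex3a probe set differed by 0.05. On the first probe set Mex3a lay at 5.48 to 5.79 in Mex3a-low cells. In Mex3a-high cells it lay at 5.57 to 5.84, and at 6.35 in the outlying array. Apart from that array, this probe set did not separate the Mex3a gates, so it gives no check of the Mex3a labels.

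Over all genes, 0 of 17097 were called with 12 arrays (0%), and 371 had an unadjusted p under 0.05 (2.17%). Of these, 173 were higher (1.01%) and 198 lower (1.16%) in Lgr5-high cells. The fit without the outlying array called 10 genes (0.0585%), 9 higher (0.0526%) and 1 lower (0.00585%), and 1748 had an unadjusted p under 0.05 (10.2%). Between the populations, 3906 genes did not overlap and were higher in both Lgr5-high arrays (22.8%), and 3193 were lower in both (18.7%), together 41.5%. In both replicates 5517 genes had a positive and 4745 a negative difference, and in 6835 the replicates had opposite signs. A difference of over 2-fold in both replicates was found in 26 genes that were higher (0.152%) and 19 that were lower (0.111%). In what follows, counts of genes at an unadjusted p under 0.05 describe the lists and are not calls. Such counts and each list's median are set beside those of all genes, whose median difference was 0.01.

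The 10 genes called without the outlying array were Lgr5, Itln1, Esr1, Slc14a1, Ptpro, Ripor2, Utrn, Sox9, Vav3 and Acer3. Itln1, which encodes a secreted lectin of Paneth and goblet cells, lay at 11.11 and 11.17 in Lgr5-high cells and at 9.18 and 9.52 in Lgr5-low cells. The arrays of a population lay close together and the gates far apart. The difference was 1.79 ± 0.183, with the smallest p of all genes (adjusted p = 0.0527 over 12 arrays, 0.00551 over 11). Esr1, the gene of estrogen receptor alpha, lay at 6.73 and 6.72 against 5.35 and 5.43. It differed by 1.33 ± 0.154 (adjusted p = 0.0727 and 0.00591 over 12 and 11 arrays), and the 2 arrays of each population lay close together.

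Slc14a1, which encodes a urea transporter, lay at 8.14 and 7.90 against 6.57 and 6.72, a difference of 1.37 ± 0.215 (adjusted p = 0.432 over 12 arrays, 0.00871 over 11). Ptpro, a receptor tyrosine phosphatase gene, lay at 7.29 and 7.30 against 5.55 and 5.97 and differed by 1.53 ± 0.261 (0.432 and 0.0244). Ripor2 lay at 7.86 and 7.62 against 6.04 and 6.50 and differed by 1.47 ± 0.259 (0.475 and 0.0354). In all 3 genes both Lgr5-high arrays lay more than 2-fold above both Lgr5-low arrays. Utrn, which encodes the dystrophin relative utrophin, differed by 1.04 ± 0.210, with levels of 11.25 and 11.08 against 9.94 and 10.31 (0.697 and 0.0297).

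Sox9, the gene of a transcription factor of the crypt base and a Wnt target, lay at 10.23 and 10.25 in Lgr5-high and at 9.15 and 9.43 in Lgr5-low cells. It differed by 0.95 ± 0.377 (adjusted p = 1.00 over 12 arrays, 0.0297 over 11). Vav3, the gene of a guanine nucleotide exchange factor, lay at 7.37 and 7.33 against 6.03 and 6.31, a difference of 1.18 ± 0.515 (1.00 and 0.0400). For both genes the populations were well separated, and the SE was 0.112 for Sox9 and 0.149 for Vav3 without the outlying array. Acer3, an alkaline ceramidase gene, was the one called gene that was lower, at 7.46 and 7.47 against 8.44 and 8.37 (-0.94 ± 0.428, 1.00 and 0.0297). The other Acer3 probe sets, which were dimmer, differed by 0.12, -0.37 and -0.16. Other probe sets of the called genes also varied. Those of Ripor2 differed by 1.29, 0.02 and -0.01, those of Sox9 by 0.95 and 0.16, those of Vav3 by 0.17 and 0.31, and that of Ptpro by 0.52. The lower values of Ripor2, Sox9 and Vav3 came from dimmer probe sets.

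**Figure D1:**
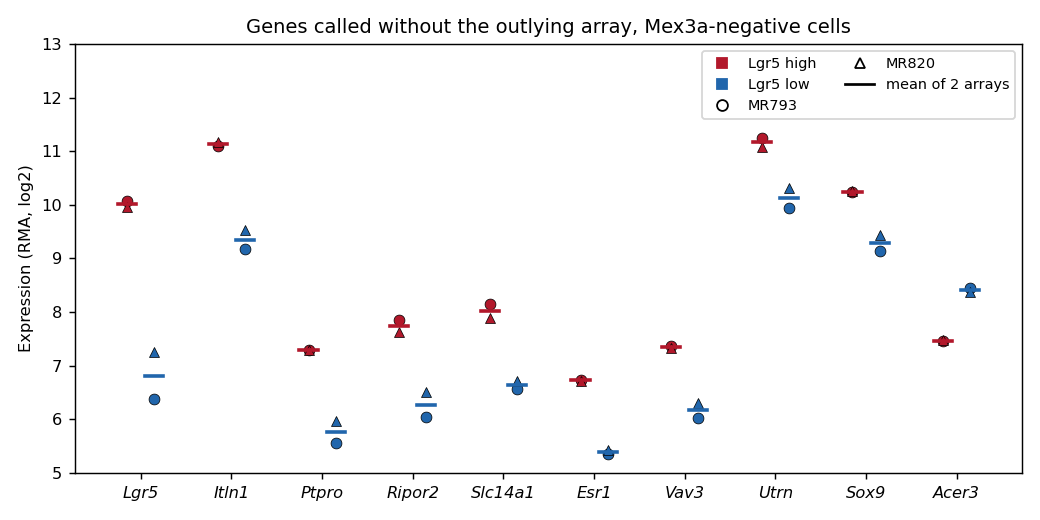
Expression (RMA, log2) of the 10 genes called without the outlying array, in the 4 Mex3a-negative arrays. Red marks Lgr5-high and blue Lgr5-low cells, circles MR793 and triangles MR820, and bars are means of 2 arrays. The populations do not overlap in any of the 10 genes, and Acer3 is the one in which Lgr5-high cells are lower.

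The stem cell list was higher in Lgr5-high cells throughout. Of 28 listed genes 26 were measured, and all 26 had a positive difference in MR793 and in MR820. The list's median was 0.95 (1.06 in MR793, 0.63 in MR820, and 0.77 with the strip as a block), against 0.01 for all genes, where 53.8% were positive. At an unadjusted p under 0.05 there were 15 higher and 0 lower. In 23 the populations did not overlap and Lgr5-high cells were higher, against 22.8% of all genes. Lgr5 and Sox9 are the 2 members called without the outlying array, and Lgr5 is a member through the gate itself. The list's mean level was 9.84 and 9.99 in the Lgr5-high arrays, against 8.63 in the Lgr5-low array of MR793 and 9.31 in that of MR820. The 2 Lgr5-low arrays thus differed from each other by more than the Lgr5-high arrays did. The same list had a median of 0.78 in Mex3a-low and 0.57 in Mex3a-high cells.

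Axin2, a feedback inhibitor of Wnt signalling, lay at 10.40 and 10.37 in Lgr5-high and at 9.17 and 9.64 in Lgr5-low cells. Its difference was 0.99 ± 0.187 (adjusted p = 0.627 over 12 arrays, 0.0909 over 11). Rnf43, the gene of an E3 ligase that removes Wnt receptors, lay at 8.57 and 8.31 against 7.11 and 7.69 (1.04 ± 0.273). Both inhibitors of the pathway were lower in both Lgr5-low arrays, and neither was called. Ascl2, the gene of a transcription factor of stem cell identity, lay at 8.88 and 9.01 against 7.47 and 8.22 (1.10 ± 0.324). Tnfrsf19, a receptor gene and Wnt target, lay at 8.39 and 8.68 against 6.70 and 7.55 (1.41 ± 0.373). Its 2 other probe sets differed by 1.49 and 1.39.

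On the probe sets used here, Smoc2 and Olfm4 differed less. Smoc2, which encodes a secreted matrix protein, lay at 10.91 and 10.84 against 9.99 and 10.64 (0.56 ± 0.222). Olfm4, one of the brightest stem cell markers, lay at 12.96 and 13.08 against 12.50 and 12.92 (0.31 ± 0.183, adjusted p = 1.00). The difference was 0.91 in MR793 and 0.20 in MR820 for Smoc2, and 0.45 and 0.16 for Olfm4. A second Smoc2 probe set, which was dimmer, differed by 0.97 (1.42 in MR793, 0.52 in MR820). Gkn3, a gastrokine gene, was over 2-fold higher in both replicates, with levels of 11.12 and 10.70 against 9.34 and 9.49 (1.49 ± 0.310, adjusted p = 0.760 over 12 arrays, 0.109 over 11). Gkn3 was chosen for naming with its values known.

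Of the Wnt pathway and target list, 28 of 29 genes were measured and 21 had a positive difference, with a median of 0.16 (0.19 in MR793, 0.15 in MR820). Higher at an unadjusted p under 0.05 were 10 genes and lower 0. These 10 include 6 that the stem cell list also holds (Lgr5, Axin2, Sp5, Rnf43, Ascl2 and Sox9). The remaining 4 are Sfrp5, the gene of a secreted Wnt inhibitor (1.09 ± 0.261), the receptor genes Fzd2 (0.95) and Fzd7 (0.51), and the transcription factor gene Myc (0.48). The other 18 genes, among them those of beta-catenin and of the Wnt co-receptors, differed by -0.56 to 1.17, the highest being the hyaluronan receptor gene Cd44.

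Sp5 encodes a transcription factor and is a direct target of Wnt signalling. It lay at 8.04 and 7.69 in Lgr5-high and at 6.85 and 7.01 in Lgr5-low cells, a difference of 0.94 ± 0.193 (adjusted p = 0.750 over 12 arrays, 0.0988 over 11). Atoh1, the regulator of the secretory fate, had a difference of the opposite sign. The 250 bases before the start of both genes are shown because these regulators differed in opposite directions. They are from RefSeq on mouse build GRCm38.p6, plus strand, at chr2:70474673-70474922 for Sp5 and chr6:64728875-64729124 for Atoh1. Capitals mark CTTTGA, a form of the core of the motif of TCF factors, searched on both strands. Other forms of the core were not searched.
Sp5: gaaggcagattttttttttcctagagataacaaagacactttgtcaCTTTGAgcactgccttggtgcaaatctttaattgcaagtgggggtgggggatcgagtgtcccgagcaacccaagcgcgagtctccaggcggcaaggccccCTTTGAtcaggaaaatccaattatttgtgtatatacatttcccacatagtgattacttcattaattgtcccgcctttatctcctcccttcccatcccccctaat
Atoh1: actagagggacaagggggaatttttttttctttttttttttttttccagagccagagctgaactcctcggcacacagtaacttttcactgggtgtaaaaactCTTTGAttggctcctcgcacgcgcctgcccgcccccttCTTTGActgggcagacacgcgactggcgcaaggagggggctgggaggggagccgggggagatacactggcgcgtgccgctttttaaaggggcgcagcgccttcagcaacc
Each window held 2 matches, beginning 204 and 104 bases before the start of Sp5 and 148 and 110 bases before that of Atoh1. CTTTGA was found in 13.8% of all 32851 windows and in 12.1% of those of genes on the arrays. It was in 3 of 21 windows of the stem cell list (14.3%), 2 of 22 of the Wnt list (9.1%) and 0 of 10 of the goblet cell list. A gene can have several windows, and a match describes letters and shows no binding.

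Among receptors and ligands of other crypt pathways, a few members differed. Ephb3, a receptor gene of Eph signalling, which keeps crypt cells in position, lay at 7.49 and 7.42 against 6.21 and 6.61 (1.04 ± 0.233, adjusted p = 0.939 over 12 arrays, 0.0988 over 11). Its relative Epha4 differed by 0.67 ± 0.223, and the ligand gene Efnb2 by -1.08 ± 0.455. The Efnb2 difference was -1.88 in MR793 and -0.28 in MR820. Of the 16 measured Eph and ephrin genes these 3 had an unadjusted p under 0.05, 2 higher and 1 lower, and the list's median was 0.08.

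Of the 18 measured Notch pathway genes, 1 had an unadjusted p under 0.05. This was Lfng, which encodes a sugar transferase that modifies Notch receptors, at 7.64 and 7.67 against 7.0 and 7.21 (0.55 ± 0.195). Notch1 lay at 10.62 and 10.71 against 9.48 and 10.12 (0.86 ± 0.393), also without overlap. Of 24 BMP pathway genes, 1 was higher and 1 lower by the same measure. Rgmb, the gene of a BMP co-receptor that is also on the stem cell list, lay at 11.04 and 11.32 against 9.28 and 10.23 (1.42 ± 0.500), and its 3 other probe sets differed by 1.34 to 1.96. The ligand gene Bmp2 differed by -0.83 ± 0.254, with levels of 4.73 and 4.99 against 6.08 and 5.29. The medians of the Notch and BMP lists were 0.03 and 0.06, and 0 of 21 EGF receptor pathway genes had an unadjusted p under 0.05.

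**Figure D2:**
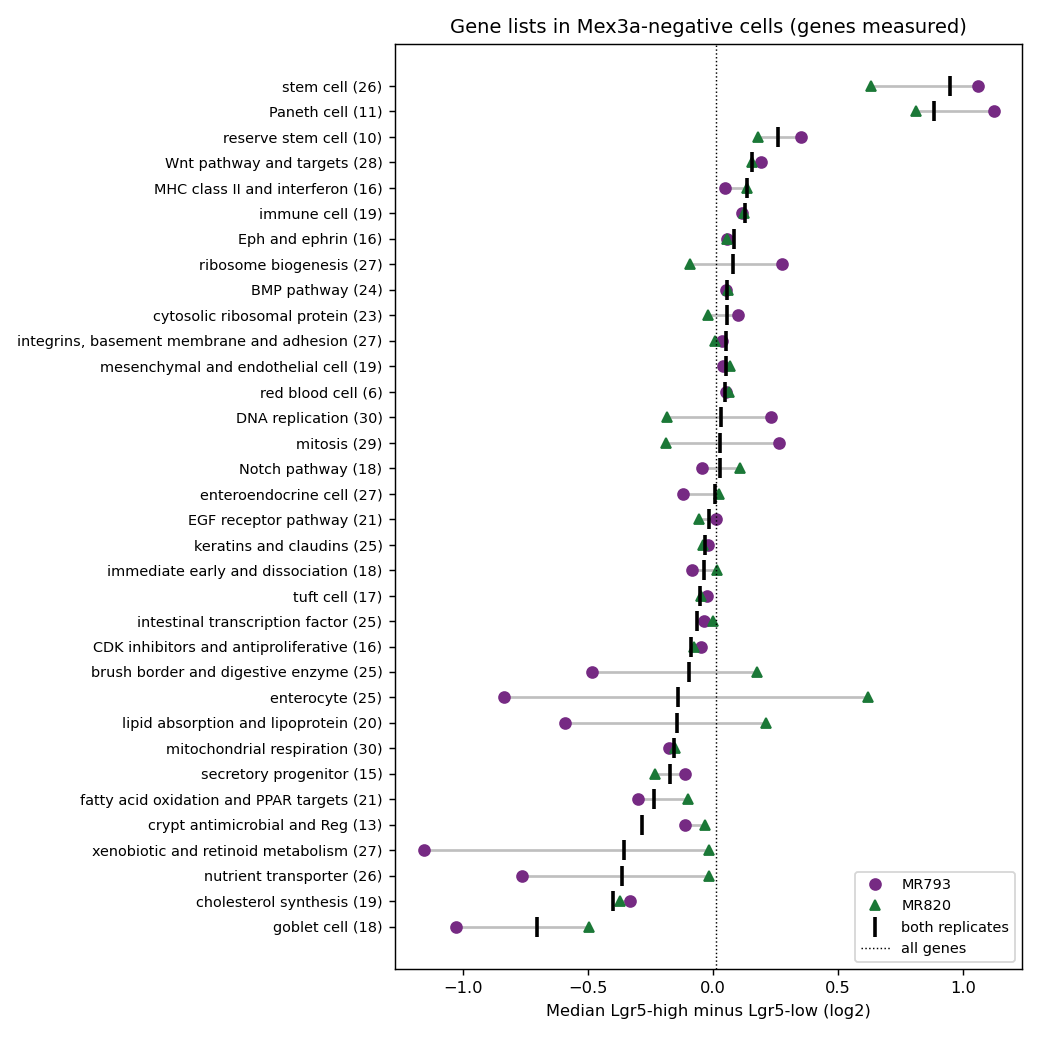
Median difference between Lgr5-high and Lgr5-low Mex3a-negative cells (log2) of each gene list, with the number of genes measured in brackets. Circles are MR793, triangles MR820, black bars the difference of the population means, and the dotted line the median of all genes (0.01). The stem cell list (0.95) and the Paneth cell list (0.88) lie highest and the goblet cell list (-0.71) lowest, and the enterocyte list has opposite signs in the replicates.

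Genes of goblet cells, which secrete mucus, were lower in Lgr5-high cells. Of 20 listed genes 18 were measured, with a median of -0.71 (-1.03 in MR793, -0.50 in MR820, and -0.71 with the strip as a block). Both replicates were negative in 14, and the same number were lower without overlap, against 18.7% of all genes. At an unadjusted p under 0.05, 8 were lower and 0 higher. None was called with 12 or with 11 arrays. The mean level of the list was 8.63 and 8.75 in Lgr5-high cells and 9.74 and 9.22 in Lgr5-low cells. Its median was similar in Mex3a-low (-0.72) and Mex3a-high cells (-0.55). In bulk RNA, fewer cells of a type and less RNA per cell cannot be told apart.

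Guca2a, the gene of the peptide guanylin, lay at 8.95 and 9.61 in Lgr5-high and at 11.40 and 10.67 in Lgr5-low cells (-1.75 ± 0.353, adjusted p = 0.697 over 12 arrays, 0.154 over 11). Agr2, which encodes an isomerase that mucin folding requires, lay at 9.0 and 9.60 against 10.96 and 10.79. It differed by -1.58 ± 0.355 (0.939 and 0.0825), and its second probe set by -1.54. Both genes were more than 2-fold lower in each replicate. The chemokine gene Ccl9 lay at 7.07 and 7.82 against 8.60 and 8.96 (-1.33 ± 0.257), and the trefoil factor gene Tff3 at 12.08 and 12.17 against 13.05 and 12.65 (-0.72 ± 0.186). Clca1, a gene of a secreted mucus protein, lay at 9.60 and 9.70 against 12.11 and 10.54, and its 2 Lgr5-low arrays differed by more than the 2 gates did in MR820 (-1.67 ± 1.01, adjusted p = 1.00).

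Of the secretory progenitor genes, 2 regulators had lower levels in Lgr5-high cells, while the list as a whole was mixed. Atoh1, which directs progenitors into the secretory lineage, lay at 6.67 and 6.53 in Lgr5-high and at 8.39 and 7.96 in Lgr5-low cells. The gates were separated in both replicates (-1.72 in MR793, -1.43 in MR820). The difference was -1.57 ± 0.530, with an adjusted p of 1.00 over 12 arrays and 0.154 over 11. Spdef, the gene of a transcription factor of goblet and Paneth cell maturation, lay at 7.61 and 7.64 against 8.47 and 8.16 (-0.69 ± 0.227). These were the 2 of 15 secretory progenitor genes with an unadjusted p under 0.05, and the list's median was -0.17 (-0.42 with the strip as a block). In 6 genes the populations did not overlap and Lgr5-high cells were lower, against 18.7% of all genes. Lgr5-high cells were higher without overlap in 4, against 22.8% of all genes. The 4 are the transcription factor genes Sox4 (0.73 ± 0.336, 1.20 in MR793 and 0.27 in MR820), Hes6 (0.50), Foxa2 (0.25) and Foxa1 (0.09).

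Several genes outside the lists were also over 2-fold lower in both replicates. They were chosen for naming with their values known. Atp2a3, the gene of a calcium pump of the endoplasmic reticulum, lay at 8.75 and 8.93 against 10.27 and 10.01 (-1.30 ± 0.220, adjusted p = 0.432 over 12 arrays, 0.0909 over 11). Selenom, a selenoprotein gene, lay at 6.91 and 7.39 against 9.02 and 8.46 (-1.59 ± 0.272). Bace2, a membrane protease gene, differed by -1.82 ± 0.405, and the adhesion protein gene Hepacam2 by -1.86 ± 0.416, the lowest difference of all genes. On the other side Lbh, the gene of a transcription cofactor, lay at 9.89 and 9.44 against 7.77 and 8.07 (1.74 ± 0.321, 0.605 and 0.120).

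Paneth cells, which sit between the stem cells and secrete antimicrobial proteins, had a list that split into genes that were higher in Lgr5-high cells and genes that hardly differed. Of 20 listed genes 11 were measured on a probe set of 1 gene, and their median was 0.88 (1.12 in MR793, 0.81 in MR820). Of these, 6 were higher at an unadjusted p under 0.05, did not overlap, though Mmp7 hardly separated, and were positive in both replicates: Itln1, Defa21, Pnliprp2, Lyz2, Clps and Mmp7. The other 5 (Defa3, Sntb1, Lyz1, Nupr1 and Guca2b) differed by -0.09 to 0.01, so the median is the lowest value of the 6. Defa21, an alpha-defensin gene, had the highest difference of all genes. It lay at 10.54 and 10.37 in Lgr5-high cells, at 5.48 in Lgr5-low cells of MR793 and at 7.92 in those of MR820 (3.76 ± 0.619, adjusted p = 0.432 over 12 arrays, 0.0988 over 11). Alpha-defensin genes are near copies of each other, and the probe set may read several.

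Lyz2, a lysozyme gene that macrophages also express, lay at 12.50 and 12.54 against 9.97 and 11.71 (1.68 ± 0.413). Pnliprp2, a lipase-related gene, lay at 7.83 and 7.39 against 5.59 and 5.56 (2.04 ± 0.465), and the colipase gene Clps at 9.47 and 9.14 against 8.20 and 7.45 (1.48 ± 0.488). Mmp7, whose protease activates defensins, lay at 8.31 and 8.95 against 7.19 and 8.31 (0.88 ± 0.381). In the first 3 genes both Lgr5-high arrays lay clearly above the higher Lgr5-low array, and in Mmp7 the populations met (8.3114 against 8.311). The median of the list was 0.58 in Mex3a-low and 0.05 in Mex3a-high cells. For Itln1 the difference between gates was tested: its Lgr5 difference in Mex3a-negative cells exceeded that in Mex3a-high cells (0.04) by 1.75 ± 0.259 (adjusted p = 0.0209). This call was kept in 5 of the 12 fits that leave out 1 array. Itln1 lay at 12.51 and 12.16 in Lgr5-high and at 12.45 and 12.15 in Lgr5-low Mex3a-high cells. The Mex3a-negative Lgr5-low arrays were the lowest of all 12.

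**Figure D3:**
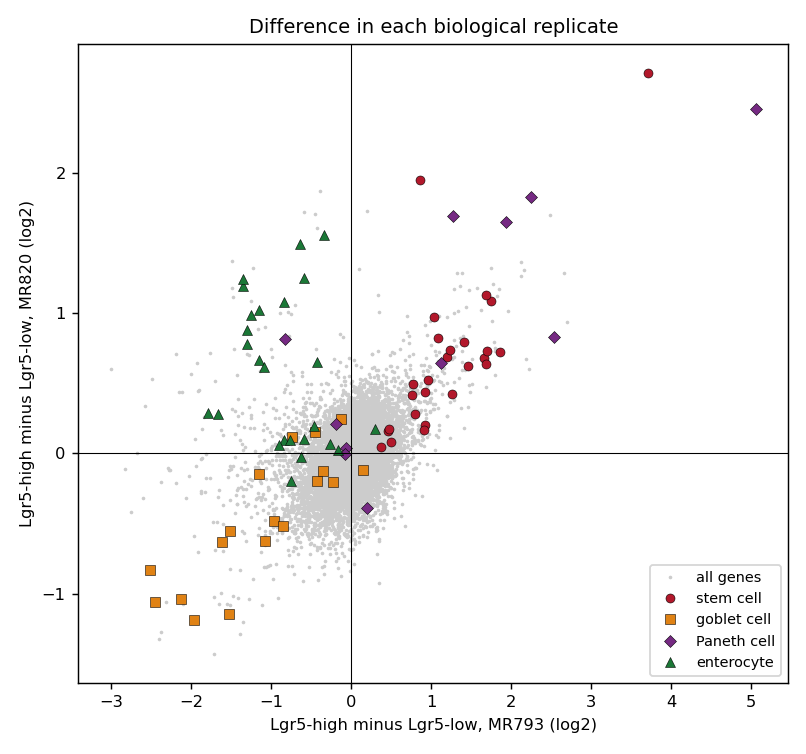
Difference between Lgr5-high and Lgr5-low Mex3a-negative cells in MR793 (horizontal, log2) against that in MR820 (vertical, log2) for each of 17097 genes, with 4 lists marked. All 26 stem cell genes lie in the upper right, 14 of 18 goblet cell genes in the lower left, and 22 of 25 enterocyte genes have opposite signs in the 2 replicates.

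Enterocyte genes gave no common direction. Of 30 listed genes 25 were measured, and 24 were lower in Lgr5-high cells of MR793 while 23 were higher in those of MR820. The median was -0.84 in MR793 and 0.62 in MR820, and 0 genes had an unadjusted p under 0.05. The mean level of the list was 9.16 and 9.06 in the Lgr5-high arrays, against 10.02 in the Lgr5-low array of MR793 and 8.48 in that of MR820. The disagreement thus lay in the Lgr5-low arrays. All 25 genes were higher in the MR793 than in the MR820 array there, by a median of 1.66, while the Lgr5-high arrays differed by a median of 0.09. Apoa1, an apolipoprotein gene, lay at 11.82 and 11.95 against 12.40 and 10.70. Krt20, a keratin gene of mature cells, lay at 9.76 and 10.14 against 10.91 and 9.11. The fatty acid binding protein gene Fabp1 lay at 10.96 and 10.12 against 11.81 and 9.04.

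In each of these 3 genes, the Lgr5-high levels lay between the 2 Lgr5-low arrays. Related lists split the same way: lipid absorption had a median of -0.59 in MR793 and 0.21 in MR820, and brush border and digestive enzymes -0.49 and 0.17. For xenobiotic and retinoid metabolism the medians were -1.16 and -0.02. Nutrient transporters had a median of -0.36 (-0.76 in MR793, -0.02 in MR820, and -0.19 with the strip as a block), with 13 of 26 genes negative in both replicates and 2 lower at an unadjusted p under 0.05. These were Slc40a1, the gene of the iron exporter ferroportin, at 6.37 and 6.56 against 8.00 and 7.17 (-1.12 ± 0.281), and Slc7a8, an amino acid transporter gene (-0.84 ± 0.259). Ihh, whose ligand is made by enterocytes and signals to the mesenchyme, lay at 7.55 and 7.56 against 8.89 and 8.13 (-0.95 ± 0.322).

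**Figure D4:**
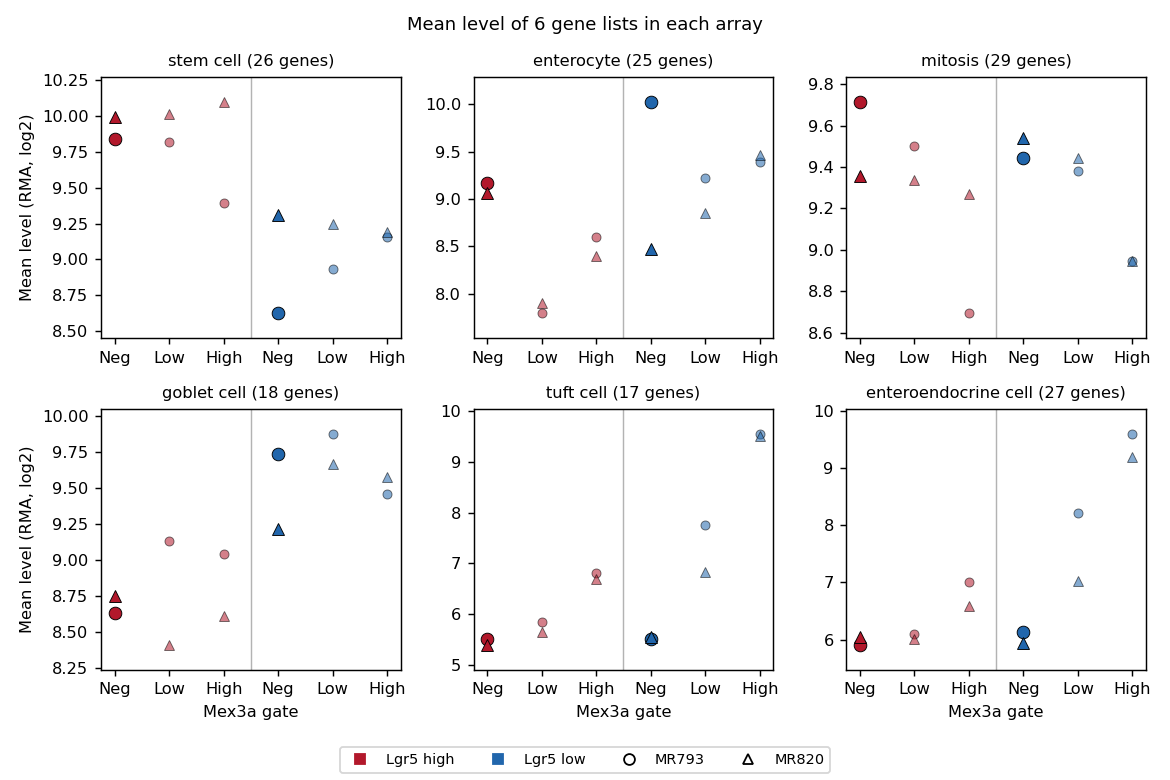
Mean level (RMA, log2) of 6 gene lists in each of the 12 arrays, by Mex3a gate. Red is Lgr5-high and blue Lgr5-low, circles are MR793 and triangles MR820, and the Mex3a-negative arrays are drawn larger. The stem cell and goblet cell lists separate the Mex3a-negative gates, the enterocyte list lies at 10.02 and 8.48 in the 2 Lgr5-low arrays, and the tuft cell list lies at 5.40 to 5.54 in all 4.

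Genes of the cell cycle did not separate the gates. The 29 measured mitosis genes had a median of 0.03, with 0.26 in MR793 and -0.19 in MR820, and 27 had opposite signs in the replicates. Their mean level was 9.71 and 9.36 in Lgr5-high and 9.44 and 9.54 in Lgr5-low cells. The 30 DNA replication genes had a median of 0.03 (0.23 and -0.18), and 25 had opposite signs. In both lists 0 genes had an unadjusted p under 0.05. Mki67, the gene of the proliferation marker Ki-67, lay at 11.27 and 10.86 against 10.87 and 10.99 (0.14 ± 0.183). A p that misses the threshold does not show that proliferation was equal. The 27 ribosome biogenesis genes followed the replicates too (0.28 and -0.09).

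Genes of mitochondrial respiration and cholesterol synthesis differed by little, and most were lower in Lgr5-high cells. Of all 17097 genes, 4745 were negative in both replicates, and 18.7% were lower without overlap. Of 30 measured genes of mitochondrial respiration, 28 were negative in both replicates and 25 did not overlap, with a median of -0.16 (-0.18 in MR793, -0.15 in MR820). With the strip as a block this median was -0.02. The 3 with an unadjusted p under 0.05 were Sdhd, a subunit of complex II (-0.53 ± 0.190), Uqcrc1, of complex III (-0.35 ± 0.141), and Ndufb10, of complex I (-0.35 ± 0.153). None was called. For the 19 measured genes of cholesterol synthesis the median was -0.40 (-0.33 and -0.37, and -0.29 with the strip as a block), and 15 were negative in both replicates. Dhcr7, the gene of the last enzyme of the pathway, lay at 9.08 and 9.40 against 9.93 and 9.85 (-0.65 ± 0.176). Msmo1, which encodes a sterol oxidase, differed by -0.46 ± 0.158, and these were the 2 with an unadjusted p under 0.05. The 21 measured genes of fatty acid oxidation and PPAR targets had a median of -0.24, but 0.17 with the strip as a block. Of these, 13 were negative and 3 positive in both replicates.

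Markers of other cell types were given for the same arrays. Of 19 measured immune genes, 12 were positive in both replicates, and the mean level of the list was 6.05 and 6.07 in Lgr5-high and 5.73 and 5.84 in Lgr5-low cells. Its median was 0.13, and -0.11 with the strip as a block, and 3 genes had an unadjusted p under 0.05: Lyz2, Gzma and Gzmb. Gzma, a granzyme gene of cytotoxic lymphocytes, lay at 7.21 and 6.89 against 5.89 and 5.61 (1.30 ± 0.507), and 0.10 with the strip as a block. Gzmb differed by 0.56 ± 0.237, and by 0.03 with the strip as a block. The T cell receptor gene Cd3e lay at 5.24 and 5.32 against 5.04 and 4.94. The part of such cells in the Lyz2 difference was not tested. The 19 mesenchymal and endothelial genes had a median of 0.05 (-0.14 with the strip as a block) and the 6 red blood cell genes 0.05, with 0 genes at an unadjusted p under 0.05 in either list.

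A contrast with the other Mex3a gates was in tuft and enteroendocrine cell genes, which had no common direction by Lgr5 here. Tuft cells are chemosensory cells of the epithelium. Among Mex3a-negative cells the 17 measured tuft cell genes had a median of -0.05 and the 27 enteroendocrine genes 0.01, with 0 of either at an unadjusted p under 0.05. The mean level in these 4 arrays was 5.40 to 5.54 for the tuft list and 5.91 to 6.14 for the enteroendocrine list. The array medians were 5.83 to 6.04. Differences of dim genes are compressed, so small values here do not show that these genes were unrelated to Lgr5. The enteroendocrine members went both ways, from -1.20 to 1.32, with 5 higher and 7 lower without overlap. The tuft cell members differed by -0.58 to 0.28, with 1 higher and 5 lower without overlap. Over all genes, 22.8% were higher and 18.7% lower without overlap. In Mex3a-low cells the tuft and enteroendocrine medians were -1.55 and -1.26, and in Mex3a-high cells -2.95 and -2.91. With the strip as a block the Mex3a-negative medians were 0.22 and 0.67. Dclk1, a kinase gene that marks tuft cells, lay at 5.10 and 5.04 in Lgr5-high and at 5.27 and 5.63 in Lgr5-low Mex3a-negative cells. It lay at 8.12 and 8.00 in Lgr5-high and at 11.64 and 11.81 in Lgr5-low Mex3a-high cells.

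The difference of the Lgr5 difference between Mex3a-negative and Mex3a-high cells was tested for all genes. It was called in 68 (0.398%), all with a higher value in Mex3a-negative cells, and all 68 were also called without the outlying array, where the count was 160 (0.936%). At an unadjusted p under 0.05 were 634 (3.71%). The 68 include 7 of the 17 tuft cell genes and 4 of the 27 enteroendocrine genes. In all but Itln1 the difference among Mex3a-negative cells lay between -0.40 and 0.61, and in 66 that among Mex3a-high cells was below -1. Without any one of the 4 Mex3a-negative arrays the count was 18 to 24. With the MR820 array of Mex3a-high Lgr5-high cells removed, so that the outlying array alone stands for them, it was 8315. Of the 68, 16 were called in all 12 fits that leave out 1 array. Weighting the arrays by quality, which gave both Mex3a-high Lgr5-high arrays a weight of 0.0764, left 0 called.

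The 5 with the smallest p were Lrp11, Neurod1, Bmx, Strip2 and Nebl. Neurod1, which encodes a transcription factor of enteroendocrine cells, lay at 5.17 and 5.24 in Lgr5-high and 5.29 and 5.11 in Lgr5-low Mex3a-negative cells. Its Lgr5 difference was 0.01, against -3.16 in Mex3a-high cells (difference 3.17 ± 0.261, adjusted p = 0.00234). Cpe, the gene of a prohormone-processing carboxypeptidase, lay at 4.46 to 4.88 in the 4 arrays (difference 5.30 ± 0.831, adjusted p = 0.0300). Cdkn1c, which encodes the cell cycle inhibitor p57, lay at 5.25 to 5.43 (3.51 ± 0.375, adjusted p = 0.00540). These genes were at one low level in all Mex3a-negative arrays.

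Against Mex3a-low cells 0 genes had a called difference (0%), with 120 at an unadjusted p under 0.05 (0.702%). Without the outlying array 2 were called (0.0117%). These were Gip, the gene of an incretin hormone, which lay at 8.24 and 7.10 in Lgr5-high and at 6.62 and 6.08 in Lgr5-low Mex3a-negative cells, and Nkx2-2, a transcription factor gene of enteroendocrine cells. The Gip difference among Mex3a-negative cells was 1.32 ± 0.726, against -5.62 in Mex3a-low cells (difference 6.94, adjusted p = 0.562 over 12 arrays, 0.0100 over 11). For Nkx2-2 these were -0.14 and -1.83 (difference 1.69, 1.00 and 0.0100).

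**Figure D5:**
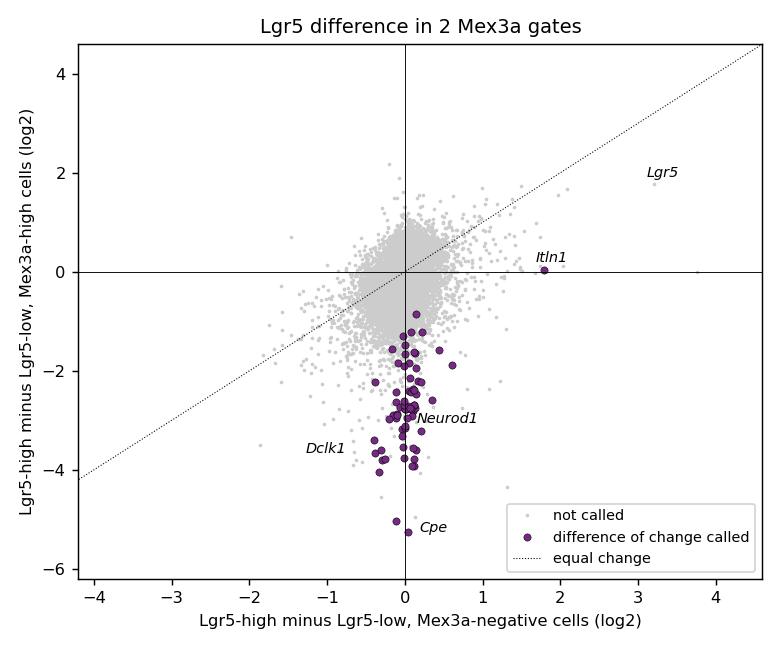
Lgr5-high minus Lgr5-low difference (log2) among Mex3a-negative cells (horizontal) and among Mex3a-high cells (vertical) for 17097 genes. Purple marks the 68 genes whose difference was called to differ between the 2 gates, and the dotted line marks equal differences. Of the purple points, 67 lie between -0.40 and 0.61 on the horizontal axis, and Itln1 lies at 1.79.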

How the data were processed

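RNA of 12 samples, 6 populations of 2 biological replicates, was measured on Affymetrix arrays. The authors deposited log2 values per probe set. Per the submitters' processing notes these are RMA values, with a version that is not given in the sources used here. All 12 columns were matched to samples by name. Of 45141 probe sets, 28898 had 1 gene in the probe table. The one with the highest mean over 12 arrays stood for each gene, giving 17097 genes (7180 had more than 1 probe set to choose from). RMA gives dim probe sets a value too, which compresses their differences, and n = 2 limits the precision.

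Population means were fitted with limma 3.58.1 (R 4.3.3) on all 12 arrays and no block, using eBayes with trend (residual degrees of freedom 6, prior 3.44) and Benjamini-Hochberg adjustment over all genes of each comparison. SE is limma's moderated standard error, and values per replicate are differences of 2 arrays. The scripts were tested on simulated data. The labels give a shared biological replicate: its arrays deviated together in 14 of 15 pairs of populations (correlation over 0.1, lowest -0.115), with 0.399 between the 2 populations compared here.

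The members and the 34 gene lists, written from general knowledge, were chosen with earlier results of these data known. Named genes are Lgr5 and Mex3a, the genes called without the outlying array (Mex3a-high Lgr5-high, MR793), up to 4 members of a list with the smallest p, markers given as levels, and the 5 smallest p of each difference test. Named beyond this rule, with their values known, are Gkn3, Lbh, Atp2a3, Selenom, Bace2, Hepacam2 and Cdkn1c, and the further list members given. Alternatives were replicate and strip blocks, array weights, renormalization, filters, probe set averaging and leaving out each array.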

Additional observations from a re-analysis of the deposited data

Results flagged for a closer look

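Of the 68 genes whose Lgr5 difference was called to differ between Mex3a-negative and Mex3a-high cells, 10 are named in the text and given here. Values are the difference among Mex3a-negative minus that among Mex3a-high cells (log2). They were 5.30 for Cpe, 3.51 for Cdkn1c, 3.43 for Nebl, the gene of the actin-binding protein nebulette, 3.29 for Dclk1 and 3.17 for Neurod1. They were 2.91 for the tyrosine kinase gene Bmx, 2.59 for Strip2, 2.46 for Lrp11, 1.77 for Ptprc and 1.75 for Itln1. In 9 of the 10 the difference among Mex3a-negative cells lay between -0.38 and 0.20, and in Itln1 it was 1.79. The BMP pathway list had a median of 0.055 in Mex3a-negative cells, positive in both replicates, and was negative in both replicates of Mex3a-low cells. That difference was not tested.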

How the results depend on the processing

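The count of genes called between Lgr5-high and Lgr5-low Mex3a-negative cells was 0 over 12 arrays, and also 0 with a replicate block, with the strip as a fixed block, with both blocks, with the 4 arrays alone, without the mean-variance trend and with a robust prior. It was 1 with the strip as a random block or with arrays centred on a common median, 2 with quantile normalization again, a filter on dim genes or the mean of all probe sets, and 32 with array weights. Leaving out 1 array gave 0 to 10, with 10 without either Mex3a-high Lgr5-high array and 3 without the Mex3a-negative Lgr5-low array of MR820. The test against Mex3a-low cells called 0 genes, 0 with the replicate block, 1 with the strip as a fixed block, 4 with array weights and 0 to 3 leaving out 1 array. That against Mex3a-high cells called 68, 83 with the replicate block, 141 with the strip as a fixed and 103 as a random block, 33 after the dim filter, 0 with array weights and 18 to 8315 leaving out 1 array.

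Of 1900 values of 80 gene results, 1795 kept direction and side of the threshold, 56 became called, 32 lost a call and 17 changed sign. Those were Apoa1 (-0.29 with the strip block, -0.41 with both blocks), Krt20 (0.406 and 0.0923, and 0.0155 with the strip as a random block), Fabp1 (-0.0029 with both blocks, -0.0335 as the mean of probe sets), Mki67 (-0.0436 and -0.0670) and Dclk1 (0.0505 and 0.127). Leaving out 1 array gave -0.52 to 1.18 for Apoa1, -0.96 to 0.83 for Krt20, -1.27 to 1.50 for Fabp1 and -0.0644 to 0.339 for Mki67. The cause was not tested. Itln1 lost its call against Mex3a-high cells with both blocks (adjusted p = 0.0522) and with array weights (0.903), and its adjusted p ran up to 0.153 leaving out 1 array. Among list medians, 676 of 816 moved by less than the spread between replicates.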
